A study of Homo sapiens with 12 samples.

Results

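The small nucleolar RNA host genes SNHG1, SNHG3, SNHG5, SNHG6, SNHG7, SNHG8, SNHG12, SNHG15 and GAS5 were followed through every array probe that names one of them. These were 13 of the 47300 probes on the array, and 12 of them, from 8 of the 9 genes, gave enough signal to be tested. The only probe for GAS5 (ILMN_1754378) was detected on 1 of 12 arrays and was not tested. Members were chosen by name, and probes for the snoRNAs that lie inside these genes were kept apart.

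Small nucleolar RNAs (snoRNAs) guide the methylation and pseudouridylation of ribosomal RNA. Most human snoRNAs are cut out of the introns of a longer host transcript, and in the genes described here the spliced remainder carries no conserved protein. Such spliced RNAs are usually short-lived, since many are degraded by nonsense-mediated decay when they are translated, and transcripts of several host genes begin with the run of pyrimidines that also marks those of ribosomal protein genes. GAS5 was first isolated as a transcript that accumulates in growth-arrested cells.

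HCT116 is a human colon cancer cell line, and 4 groups of it were profiled on Illumina HumanHT-12 v4 bead arrays, with 3 arrays in each group. ATF3-knockout (KO) cells were given 1.5 µM camptothecin (CPT), which traps topoisomerase I on DNA and damages it, or its vehicle DMSO for 4 h, and so were ATF3 wild-type (WT) cells. All KO arrays came from cells named E11, a single line in which ATF3, a stress-induced transcription factor, had been disrupted with a recombinant adeno-associated virus, so that a trait of this line and the loss of ATF3 cannot be told apart. The comparisons ask how the host genes responded to DNA damage and whether that response or the resting level differed without ATF3.

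The median signal of an array lay between 98.2 and 106.8, and between 13713 and 16823 probes were detected on an array. At each replicate number both CPT arrays detected fewer probes than both DMSO arrays. In KO cells the counts were 15639, 14546 and 13732 under CPT and 16292, 15454 and 15427 under DMSO. In WT cells they were 15501, 13713 and 14492 under CPT and 16823, 15541 and 15399 under DMSO. Arrays of 1 group correlated at 0.94 to 0.99. Of 8 colon epithelial markers 6 were detected on all 12 arrays, KRT20 and VIL1 were detected on under 3, and no marker of fibroblasts, leukocytes, endothelium or erythroid cells was detected on all 12. Summed signals of the 8 epithelial markers ranged over 12985.7 to 18468.7 under CPT and 17681.0 to 19514.9 under DMSO in KO cells, and over 14860.1 to 20662.2 under CPT and 17985.9 to 22763.2 under DMSO in WT cells. ATF3 RNA, read by the probe ILMN_2374865, still rose with CPT in KO cells (log2 difference 2.55, limma, adjusted p = 0.00156), as it did in WT cells (3.54, adjusted p = 0.000202). Its level in KO cells relative to WT cells differed by -2.39 under CPT (adjusted p = 0.0355) and by -1.39 under DMSO, which was not called (adjusted p = 0.288). With the replicate number as a block in the limma fit the difference under DMSO was called (adjusted p = 0.0400). It is not stated where ILMN_2374865 lies relative to the disrupted part of the gene. The ATF3 probes ILMN_1661109 and ILMN_1791346 were detected on 1 and 0 of the 12 arrays. By Western blotting the paper reported no ATF3 protein in the KO cells, with no induction by CPT, and the array reads RNA and not protein.

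With quantile scaling and no replicate block SNHG8 and 1 of 2 SNHG5 probes were called higher with CPT, and SNHG7 and SNHG12 were not. The sequences around the annotated starts of these 4 host genes are shown because they share a TATA-like element. Each runs 5′ to 3′ on the transcribed strand, 250 bases before the RefSeq start and 50 from it on (GRCh38.p14), at chr4:118278512-118278811 (plus strand) for SNHG8, chr6:85678684-85678983 (minus) for SNHG5, chr9:136728135-136728434 (minus) for SNHG7 and chr1:28581824-28582123 (minus) for SNHG12. Capitals mark the letters TATAA upstream and the C or T run that begins at the annotated first base.
SNHG8: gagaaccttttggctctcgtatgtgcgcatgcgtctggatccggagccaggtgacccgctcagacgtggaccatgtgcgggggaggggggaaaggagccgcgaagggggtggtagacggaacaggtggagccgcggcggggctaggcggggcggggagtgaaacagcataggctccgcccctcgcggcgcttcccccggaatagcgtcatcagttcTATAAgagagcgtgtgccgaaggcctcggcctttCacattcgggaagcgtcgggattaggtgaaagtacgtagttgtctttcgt
SNHG5: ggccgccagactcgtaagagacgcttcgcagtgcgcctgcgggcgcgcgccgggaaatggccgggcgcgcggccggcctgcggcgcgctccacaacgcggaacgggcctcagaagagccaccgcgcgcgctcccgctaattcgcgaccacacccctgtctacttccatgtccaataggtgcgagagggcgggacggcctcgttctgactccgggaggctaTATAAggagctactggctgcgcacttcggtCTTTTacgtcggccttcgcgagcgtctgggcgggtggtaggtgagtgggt
SNHG7: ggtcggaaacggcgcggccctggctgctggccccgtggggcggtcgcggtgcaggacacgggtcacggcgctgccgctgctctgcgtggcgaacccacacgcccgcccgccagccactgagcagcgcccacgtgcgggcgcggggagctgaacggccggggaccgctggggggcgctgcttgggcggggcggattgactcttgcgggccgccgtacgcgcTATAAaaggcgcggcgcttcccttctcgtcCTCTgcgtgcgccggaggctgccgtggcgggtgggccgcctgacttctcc
SNHG12: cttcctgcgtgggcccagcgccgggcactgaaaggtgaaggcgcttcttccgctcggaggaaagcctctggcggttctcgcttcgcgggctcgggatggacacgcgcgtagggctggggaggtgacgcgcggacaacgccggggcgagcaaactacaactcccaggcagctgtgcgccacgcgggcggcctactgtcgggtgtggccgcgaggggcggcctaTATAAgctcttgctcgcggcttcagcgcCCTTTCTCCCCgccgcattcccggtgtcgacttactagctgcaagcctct

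In these sequences TATAA begins 34 bases before the start in SNHG8, 30 bases in SNHG5 and SNHG7 and 28 bases in SNHG12. RefSeq promoters were found for 7 of the 9 genes, all but SNHG6 and SNHG15. TATAA stood on the transcribed strand between 40 and 20 bases before the start in 4 of the 7, against 4.22% of 27305 promoters of named genes. A run of at least 4 pyrimidines led by C began at the start of SNHG5, SNHG7 and SNHG12, against 5.45% of all promoters. At the RefSeq starts used here GAS5 began with A and SNHG3 with G, and neither had such a run. The first base was C in 5 of the 7, the others being SNHG1 and SNHG8, against 15% of all. These windows were chosen after the sequences had been seen, and a match is a description of the letters and not of a bound factor.

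The palindrome TGACGTCA, the letters of the ATF/CRE element, and TGACTCA, those of the AP-1 element, were searched on both strands of the same windows. Neither was among the letters of the 7 promoters, against 1.98% and 4.92% of all promoters. CACGTG was found in SNHG7 (7.43% of all), and CCAAT on either strand in SNHG5 and GAS5 (35.7% of all). With quantile scaling and no replicate block SNHG8 and 1 of 2 SNHG5 probes rose with CPT, and SNHG7 and SNHG12 did not pass the test. Whether the TATA-like letters bear on the change with CPT was not tested. SNHG15, which also rose, had no promoter to compare.

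With quantile scaling CPT raised SNHG8, SNHG15 and 1 of 2 SNHG5 probes in both genotypes, by between 1.50-fold and 2.20-fold. It lowered no host gene past the threshold. The other SNHG5 probe gave 1.17-fold in KO cells and 1.25-fold in WT cells, and was called in neither without the replicate block. In KO cells 4 of 12 probes rose and 0 fell, where 13.1% of all 13735 tested probes rose and 17.2% fell. In WT cells the same 4 probes rose and 0 fell, where 12.3% of all probes rose and 17.9% fell. With the replicate number as a block, which the arrays bear out as a pairing, the count was 5 in KO cells and 6 in WT cells, where 23.2% and 23% of all probes rose. Groups did not overlap, with CPT the higher, in 6 of 12 member probes in each genotype, beside 22.9% of all probes in KO cells and 17.5% in WT cells. The median change of the 12 probes was 0.31 in KO cells and 0.28 in WT cells, beside 0.03 for all probes in both, all as log2 differences. After quantile scaling these changes are relative to the other probes of an array. In the authors' own normalized values 2 of 12 probes rose in KO cells and 0 in WT cells, where 489 and 462 of all probes rose. Both CPT comparisons give bulk levels, in which more RNA per cell and a different make-up of the culture cannot be told apart. Whether replicates were separate cultures is not stated in the labels, so the p-values reflect the scatter of these arrays, which may be technical.

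**Figure D1:**
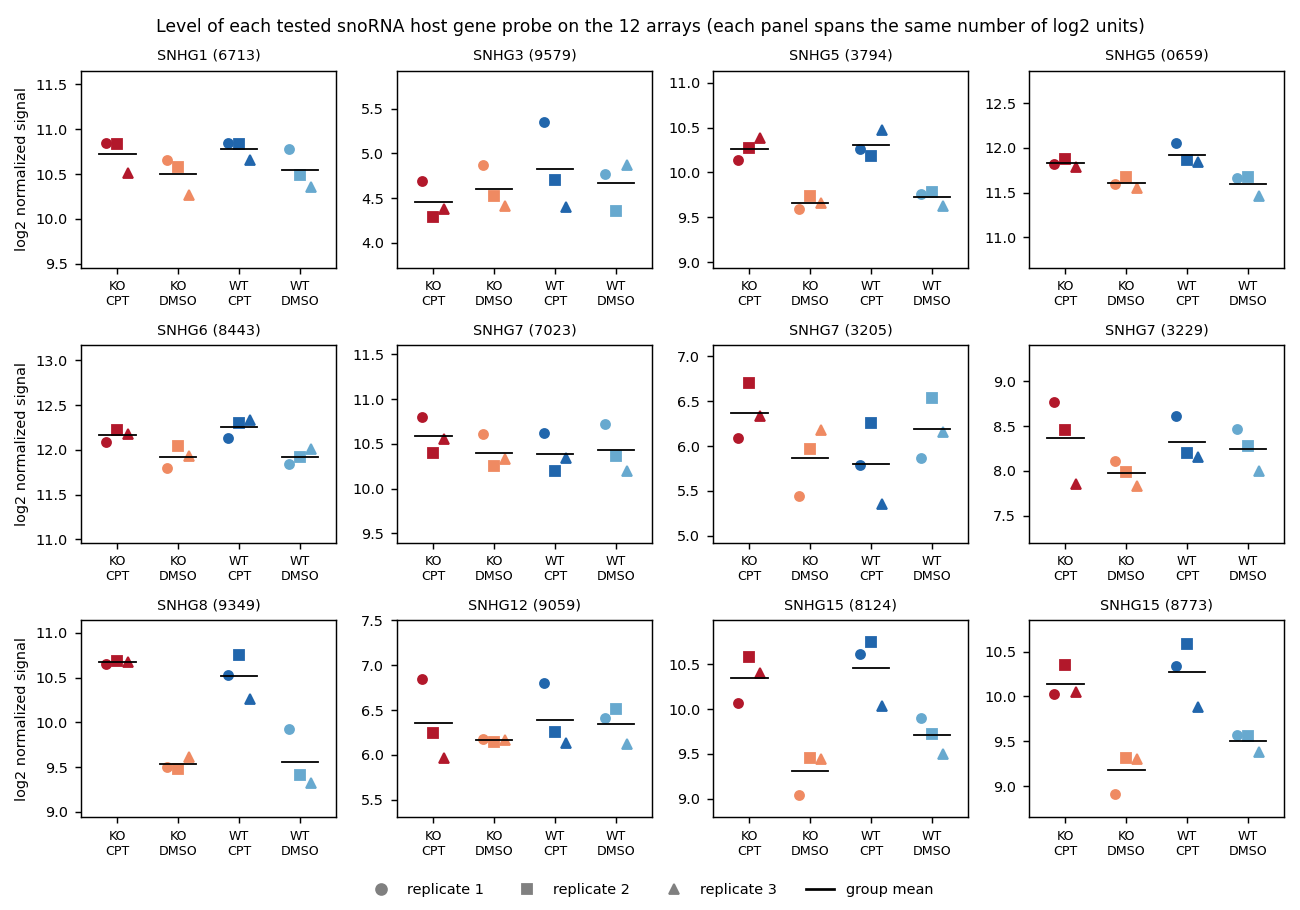
Each panel plots 1 tested host gene probe, with the log2 normalized signal on the vertical axis and the 4 groups along the horizontal axis, 1 point for each array, shaped by replicate number, and a line at the group mean. The SNHG8 points under CPT lie from 10.26 to 10.76 and those under DMSO from 9.33 to 9.92, while the points of SNHG12 and of the SNHG7 probes overlap between CPT and DMSO.

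SNHG8 showed the largest change of the 8 genes tested, in both genotypes. It hosts SNORA24, a box H/ACA snoRNA that guides pseudouridylation. In KO cells its normalized log2 level was 10.65, 10.68 and 10.68 under CPT, against 9.51, 9.48 and 9.61 under DMSO. In WT cells it was 10.53, 10.76 and 10.26 under CPT, against 9.92, 9.42 and 9.33 under DMSO. All 6 CPT arrays lay above all 6 DMSO arrays. The log2 difference was 1.14 ± 0.19 in KO cells (SE, 2.20-fold, adjusted p = 0.000834) and 0.96 ± 0.19 in WT cells (1.95-fold, adjusted p = 0.00251).

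Before any scaling the SNHG8 bead signal was 1769.8, 1566.7 and 1442.1 under CPT and 861.7, 782 and 907.6 under DMSO in KO cells. It was 1721.1, 1700.4 and 1107.9 under CPT and 1278.7, 884.4 and 758 under DMSO in WT cells. The unscaled signals thus do not overlap between treatments in KO cells, while 1 DMSO array of WT cells, replicate 1, lay above 1 CPT array, replicate 3. Without scaling between the arrays the log2 difference was 0.97 in KO cells (adjusted p = 0.0096) and 0.69 in WT cells (adjusted p = 0.0456), where the median of all probes was -0.21 and -0.33. In the authors' own normalized values SNHG8 was higher by 1.11 in KO cells (adjusted p = 0.0412) and by 0.95 in WT cells, where the call was lost (adjusted p = 0.0751).

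SNHG15, which hosts the box H/ACA snoRNA SNORA9, was read by 2 probes that gave nearly the same picture. For ILMN_1898124 the log2 level was 10.07, 10.58 and 10.40 under CPT, against 9.04, 9.46 and 9.44 under DMSO, in KO cells. In WT cells it was 10.61, 10.74 and 10.03 under CPT, against 9.90, 9.73 and 9.50 under DMSO. The groups did not overlap in either genotype, although replicate 3 of the WT cells under CPT lay close to replicate 1 under DMSO. The difference was 1.04 ± 0.22 in KO cells (SE, adjusted p = 0.00431) and 0.75 ± 0.22 in WT cells (adjusted p = 0.0227).

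The other SNHG15 probe, ILMN_3248773, had log2 levels of 10.03, 10.35 and 10.05 under CPT and 8.92, 9.31 and 9.30 under DMSO in KO cells. Its levels in WT cells were 10.34, 10.59 and 9.88 under CPT and 9.57, 9.56 and 9.38 under DMSO. Again no CPT array lay below a DMSO array of its genotype, and the difference was 0.97 ± 0.20 in KO cells (SE, adjusted p = 0.00360) and 0.77 ± 0.20 in WT cells (adjusted p = 0.0131). Both WT calls rested on single arrays. Without replicate 2 of the WT cells under CPT the differences were 0.61 for each probe (adjusted p = 0.0937 for ILMN_1898124 and 0.0614 for ILMN_3248773). The call of ILMN_1898124 in WT cells was also lost without replicate 1 under CPT (adjusted p = 0.0664), replicate 2 under DMSO (adjusted p = 0.0580) or replicate 3 under DMSO (adjusted p = 0.078). No single array ended either call in KO cells. Without scaling between the arrays the differences were 0.84 (ILMN_1898124, adjusted p = 0.0317) and 0.74 (ILMN_3248773, adjusted p = 0.0438) in KO cells, and 0.48 (adjusted p = 0.198) and 0.46 (adjusted p = 0.197) in WT cells, where both calls were lost. In the authors' values ILMN_1898124 was called in KO cells (adjusted p = 0.0485) and not in WT cells (adjusted p = 0.136), and ILMN_3248773 in neither (adjusted p = 0.0526 in KO cells and 0.114 in WT cells).

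SNHG5, the host of the box C/D snoRNAs SNORD50A and SNORD50B, also had 2 probes, and only 1 of them passed the test. The probe ILMN_1653794 had log2 levels of 10.14, 10.27 and 10.38 under CPT and 9.60, 9.73 and 9.66 under DMSO in KO cells. In WT cells its levels were 10.26, 10.18 and 10.48 under CPT and 9.76, 9.79 and 9.62 under DMSO. The CPT arrays lay above the DMSO arrays in both genotypes, with a difference of 0.60 ± 0.15 in KO cells (SE, adjusted p = 0.00984) and 0.58 ± 0.15 in WT cells (adjusted p = 0.0119).

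The other SNHG5 probe, ILMN_2200659, ran from 11.79 to 11.87 under CPT and from 11.55 to 11.67 under DMSO in KO cells, and from 11.84 to 12.05 under CPT and 11.47 to 11.68 under DMSO in WT cells. These groups did not overlap either, but the difference was 0.22 ± 0.14 in KO cells (SE, adjusted p = 0.271) and 0.32 ± 0.14 in WT cells (adjusted p = 0.110), and with the replicate block the WT difference passed (adjusted p = 0.0420). Scaling mattered for SNHG5. Without scaling between the arrays, ILMN_1653794 was higher by 0.41 in KO cells (adjusted p = 0.105) and 0.28 in WT cells (adjusted p = 0.261). In the authors' values it was higher by 0.59 in KO cells (adjusted p = 0.155) and 0.57 in WT cells (adjusted p = 0.171), and it was not called there either.

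SNHG6, which hosts the box C/D snoRNA SNORD87, followed the same course with smaller values. Its probe ILMN_3248443 had log2 levels of 12.09, 12.22 and 12.18 under CPT and 11.80, 12.04 and 11.93 under DMSO in KO cells. In WT cells the levels were 12.14, 12.30 and 12.33 under CPT and 11.84, 11.92 and 12.01 under DMSO. No CPT array fell below a DMSO array of its genotype, and all 3 replicate pairs were higher under CPT in each genotype. The difference was 0.24 ± 0.15 in KO cells (SE, adjusted p = 0.238) and 0.33 ± 0.15 in WT cells (adjusted p = 0.103), and with the replicate block the WT difference passed (adjusted p = 0.0324). With median scaling SNHG6 passed at 0.76 in KO cells (adjusted p = 0.0053) and 0.91 in WT cells (adjusted p = 0.00172).

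SNHG1, whose introns hold a series of box C/D snoRNAs that includes SNORD22 and SNORD31, did not pass the test. The log2 levels of ILMN_3236713 were 10.84, 10.83 and 10.51 under CPT and 10.65, 10.58 and 10.26 under DMSO in KO cells. They were 10.84, 10.84 and 10.65 under CPT and 10.78, 10.49 and 10.36 under DMSO in WT cells. Levels of the 2 treatments overlapped, although each CPT array lay above the DMSO array of the same number. The difference was 0.23 in KO cells (95% confidence interval -0.16 to 0.61, adjusted p = 0.363) and 0.24 in WT cells (-0.15 to 0.62, adjusted p = 0.337), and the unscaled difference was 0.10 in KO cells and 0.04 in WT cells. With median scaling, which moved the median of all probes to 0.20 in KO cells and 0.22 in WT cells, SNHG1 passed at 0.52 in KO cells (adjusted p = 0.0302) and 0.60 in WT cells (adjusted p = 0.0156).

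SNHG7, host of SNORA17A and SNORA17B, had 3 probes that did not move together. ILMN_3227023 differed by 0.18 ± 0.19 in KO cells and -0.04 ± 0.19 in WT cells (SE), and ILMN_3233229 by 0.39 ± 0.23 in KO cells and 0.07 ± 0.23 in WT cells. ILMN_3233229 passed in KO cells with the replicate block (adjusted p = 0.0461). The third probe, ILMN_3233205, had log2 levels of 6.09, 6.70 and 6.33 under CPT and 5.44, 5.97 and 6.18 under DMSO in KO cells. Its levels in WT cells were 5.79, 6.25 and 5.35 under CPT and 5.87, 6.54 and 6.16 under DMSO. Groups overlapped for all 3 probes, and the values of ILMN_3233205 lay above in KO and below in WT cells in each replicate pair, with differences of 0.51 ± 0.28 (adjusted p = 0.184) and -0.39 ± 0.28 (adjusted p = 0.306).

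SNHG12 and SNHG3 gave dim signals, and neither passed with quantile scaling. SNHG12, host of SNORA16A, SNORA44, SNORA61 and SNORD99, had bead signals from 128.9 to 196.4, and its probe ILMN_3249059 differed by 0.19 ± 0.24 in KO cells (SE, adjusted p = 0.594) and 0.05 ± 0.24 in WT cells (adjusted p = 0.905). In KO cells the log2 levels were 6.85, 6.24 and 5.96 under CPT and 6.18, 6.14 and 6.17 under DMSO, and in WT cells 6.80, 6.26 and 6.13 under CPT and 6.42, 6.51 and 6.12 under DMSO. Replicate 1 was the highest CPT array in both genotypes, and the groups overlapped. SNHG3, host of SNORA73A and SNORA73B, gave 96.7 to 118.5 on the only probe for it (ILMN_2179579), which was detected on 3 of 12 arrays, so its level was near background and no fold change is given. With median scaling this probe was called higher in WT cells (adjusted p = 0.0317), and it was not called under any other setting tried.

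GAS5, the host of a large set of box C/D snoRNAs that includes SNORD44 and SNORD80, could not be followed by its spliced transcript. Its bead signals were 101.5, 111.7 and 107.8 under CPT and 95.7, 106.4 and 101.7 under DMSO in KO cells. In WT cells they were 110.8, 108.9 and 108.3 under CPT and 105.5, 100.9 and 104.3 under DMSO. All of these are close to the median signal of the arrays, and 1 of the 12 values was detected. No difference is given for signals so near background.

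**Figure D2:**
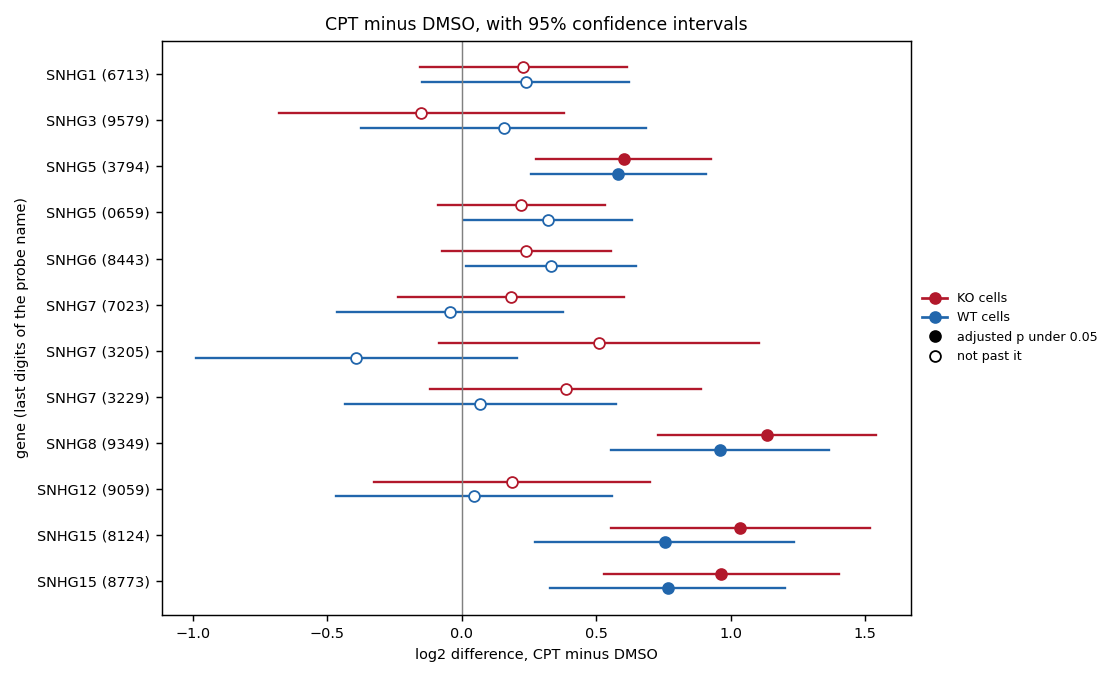
The log2 difference between CPT and DMSO is drawn for each tested probe with its 95% confidence interval, KO cells above WT cells, and a filled point marks an adjusted p under 0.05. SNHG8 (1.14 in KO cells and 0.96 in WT cells), both SNHG15 probes and 1 of 2 SNHG5 probes are filled in both genotypes, and the intervals of all others are drawn around open points.

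No host gene differed between KO and WT cells past the threshold. Under CPT 0 of 12 probes were called, beside 0.648% of all probes (89), and under DMSO 0 of 12, beside 0.845% (116), and 0 of 12 had an unadjusted p under 0.05 in either comparison. With the replicate block 0 of 12 were called as well, beside 3.72% of all probes under CPT and 3.76% under DMSO. The largest differences under DMSO belonged to SNHG15, which was lower in KO cells by -0.40 ± 0.22 (SE, ILMN_1898124, adjusted p = 0.675) and -0.33 ± 0.20 (ILMN_3248773, adjusted p = 0.723). For both probes the KO arrays under DMSO all lay below the WT arrays, which held for 8.82% of all probes. Under CPT the groups of all 12 member probes overlapped, beside 13% of all probes whose groups did not. Replicate 1 had the largest gap for ILMN_1898124, with log2 levels of 9.04 in KO cells and 9.90 in WT cells. Under CPT the difference farthest from 0 was that of the SNHG7 probe ILMN_3233205, at 0.58 (95% confidence interval -0.02 to 1.17, adjusted p = 0.531), with KO above WT cells in all 3 replicate pairs. The SNHG15 differences under CPT were -0.11 (-0.60 to 0.37) and -0.13 (-0.56 to 0.31), with 95% confidence intervals.

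For SNHG8 the KO and WT levels differed by 0.16 under CPT (95% confidence interval -0.25 to 0.56) and by -0.02 under DMSO (-0.43 to 0.39). For the SNHG5 probe ILMN_1653794 the values were -0.04 (-0.37 to 0.29) under CPT and -0.06 (-0.39 to 0.27) under DMSO. The intervals of these 2 genes hold differences of up to 0.56 on the log2 scale, which these arrays could not tell from 0.

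The CPT response itself was compared between genotypes with the replicate number as a block. None of the 12 member probes was called, and none of the 13735 probes was either, although 678 of all and 1 of the 12 had an unadjusted p under 0.05. The response of SNHG8 was larger in KO than in WT cells by 0.18 (95% confidence interval -0.34 to 0.70), that of SNHG15 by 0.28 (-0.32 to 0.88) for ILMN_1898124 and 0.20 (-0.31 to 0.71) for ILMN_3248773, and that of SNHG5 by 0.02 (-0.38 to 0.43) for ILMN_1653794. Each of these intervals includes 0. The 1 member probe below an unadjusted p of 0.05 was ILMN_3233205 of SNHG7, at 0.90 (0.29 to 1.51, adjusted p = 0.799).

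**Figure D3:**
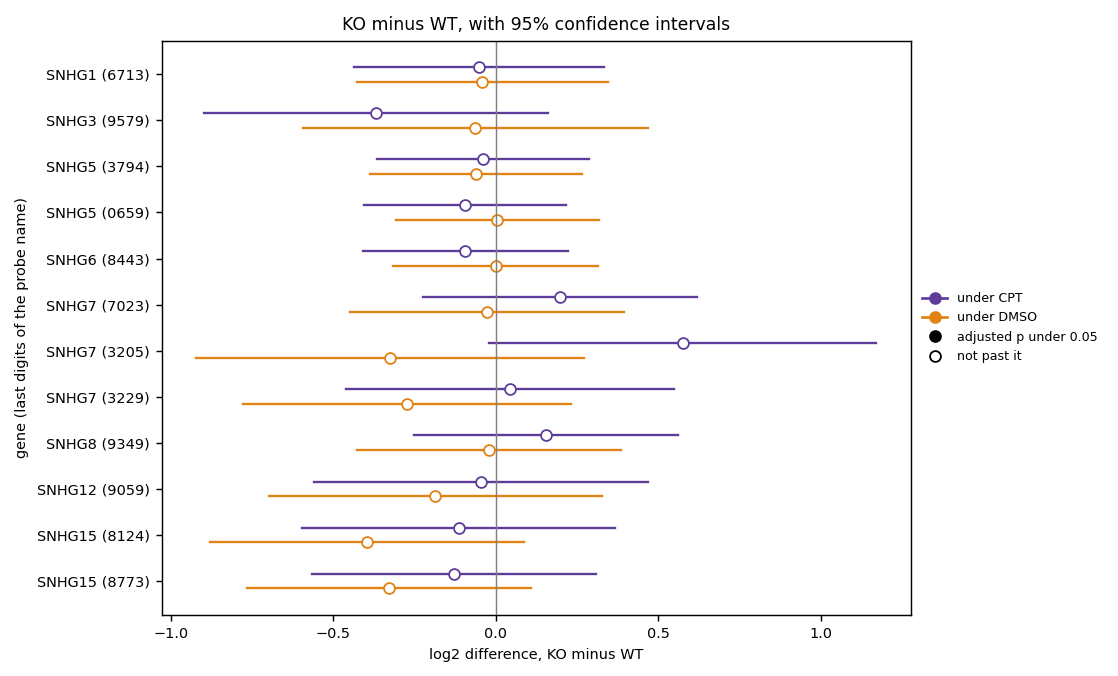
The log2 difference between KO and WT cells is drawn for each tested probe with its 95% confidence interval, the comparison under CPT above that under DMSO. All 24 points are open, and the lowest under DMSO are the SNHG15 probes at -0.40 and -0.33 and the SNHG7 probe ILMN_3233205 at -0.33.

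SNHG9 rose in both genotypes among the other genes that host snoRNAs but code for no protein. Of 10 tested probes from 9 such genes, 2 rose and 0 fell in KO cells, where 13.1% of all probes rose and 17.2% fell. In WT cells 2 rose and 1 fell, where 12.3% of all probes rose and 17.9% fell. The median was 0.33 in KO cells and 0.54 in WT cells. The change of SNHG9 was 1.02 in KO cells (adjusted p = 0.0144) and 0.99 in WT cells (adjusted p = 0.0174). SNHG11 rose in WT cells by 0.93 (adjusted p = 0.0182), and 1 of 2 probes of SNHG32 rose in KO cells by 0.86 (adjusted p = 0.0483), while the other gave -0.05. SNHG17 was lower in WT cells by -0.77 (adjusted p = 0.0101) and gave -0.37 in KO cells (adjusted p = 0.171). With the replicate block 4 probes rose in KO cells and 6 in WT cells, where 23.2% and 23% of all probes rose. With no scaling between arrays none rose, where 468 of all 13735 probes rose in KO cells and 301 in WT cells. In the authors' values 0 rose in KO cells and 1 in WT cells, where 489 and 462 of all probes rose.

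Protein-coding hosts, most of them genes of ribosomal proteins and translation factors, included DKC1, which fell in both genotypes, and RPL32, which rose in both on 1 of its probes. Of 62 probes 8 rose and 6 fell in KO cells, beside 13.1% and 17.2% of all probes, and 2 rose and 9 fell in WT cells, beside 12.3% and 17.9%. With the replicate block 9 rose and 10 fell in KO cells, beside 23.2% and 23.9% of all probes, and 3 rose and 14 fell in WT cells, beside 23% and 24.9%. The median of the list was 0.03 in KO cells and -0.0047 in WT cells with quantile scaling, and 0.55 in KO cells and 0.45 in WT cells with median scaling. RPL32, a ribosomal protein gene, rose by 0.87 in KO cells and 0.94 in WT cells on ILMN_2400143, while its probe ILMN_1663799 gave 0.07 and 0.03. DKC1, which encodes the pseudouridine synthase of box H/ACA particles and hosts snoRNAs as well, fell by 0.96 in KO cells (adjusted p = 0.00101) and 1.01 in WT cells (adjusted p = 0.000786). The split of this list turned with the scaling, since with median scaling 33 rose and 5 fell in KO cells and 27 rose and 5 fell in WT cells, and with no scaling 0 rose and 7 fell in KO cells and 0 rose and 8 fell in WT cells. In the authors' values 0 rose and 1 fell in KO cells and 0 rose and 2 fell in WT cells. Of all 13735 probes 2922 rose and 1931 fell in KO cells with median scaling, and 3211 rose and 1981 fell in WT cells. With no scaling 468 of all rose and 3218 fell in KO cells, and 301 rose and 4142 fell in WT cells. In the authors' values 489 of all rose and 983 fell in KO cells, and 462 rose and 1018 fell in WT cells.

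The snoRNAs in the introns of the 9 genes were measured on 15 tested probes. None was called in KO cells, where 13.1% of all probes rose. In WT cells 3 rose, where 12.3% of all did, namely SNORD31 (1.20, adjusted p = 0.0126) and SNORD22 (0.67, adjusted p = 0.0283) of SNHG1 and SNORA73A (0.80, adjusted p = 0.0309) of SNHG3. Their values in KO cells were 0.81, 0.42 and 0.46. With the replicate block 3 of the 15 rose in KO cells and 7 in WT cells, where 23.2% and 23% of all probes rose. With median scaling 2 rose in KO cells and 5 in WT cells, where 2922 and 3211 of all 13735 probes rose. With no scaling between arrays or in the authors' values none was called in either genotype. There 468 and 489 of all probes rose in KO cells, and 301 and 462 in WT cells. SNORA24, the snoRNA of SNHG8, gave 0.01 in KO cells and 0.12 in WT cells, while its host gave 1.14 and 0.96. SNORD80 of GAS5 gave 0.83 in KO cells (adjusted p = 0.132) and 0.95 in WT cells (adjusted p = 0.0865). A probe inside a host intron can read the unspliced host as well as the mature snoRNA, and the 2 cannot be told apart here.

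Factors of nonsense-mediated decay, the pathway that degrades many spliced host RNAs, held falls on 7 of 15 genes in each genotype, and 1 gene, SMG8, rose in each. Of 18 probes 10 fell and 1 rose in KO cells, where 17.2% of all probes fell and 13.1% rose. In WT cells 9 fell and 1 rose, where 17.9% of all probes fell and 12.3% rose. The list had a median of -0.84 in KO cells and -0.72 in WT cells. ETF1, the translation release factor eRF1, fell by 1.31 in KO cells (adjusted p = 0.000158) and 1.15 in WT cells (adjusted p = 0.000374) on ILMN_2222992, and GSPT1, its partner eRF3, fell by 1.05 and 0.97. DHX34, a helicase of the pathway, fell by 1.16 in KO cells and 1.20 in WT cells. SMG8, a regulator of the kinase SMG1, rose by 1.68 in KO cells (adjusted p = 5.65e-05) and 1.33 in WT cells (adjusted p = 0.000276). With median scaling 10 fell in KO cells and 9 in WT cells, where 1931 and 1981 of all 13735 probes fell. With no scaling 12 fell in each, where 3218 of all probes fell in KO cells and 4142 in WT cells. In the authors' values 5 fell in KO cells and 6 in WT cells, where 983 and 1018 of all probes fell. Whether these factors bear on the host gene levels was not tested.

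Genes of the particles that snoRNAs form are set here beside 17.2% of all probes lower and 13.1% higher in KO cells, and 17.9% lower and 12.3% higher in WT cells. Of 19 probes for box C/D proteins and assembly factors, from 11 genes, 6 fell in each genotype, and 3 rose in KO cells and 1 in WT cells. The falls lay on 4 genes in each genotype, and the rises on 2 genes in KO cells and 1 in WT cells. The median of the 19 was -0.0086 in KO cells and -0.13 in WT cells. Among the genes that fell, NUFIP1, which assembles the particles, fell by 1.78 in KO cells and 1.94 in WT cells (ILMN_2166686), and ZNHIT6 by 1.27 in KO cells and 1.41 in WT cells. Of 13 box H/ACA probes 4 fell and 0 rose in each genotype, NAF1 by 1.01 in KO cells and 1.20 in WT cells. Their median was 0.05 in KO cells and -0.16 in WT cells, and 7 of the 13 lay above 0 in KO cells and 5 in WT cells. With median scaling 3 of these 13 probes fell in each genotype, and 2 rose in KO cells and 4 in WT cells. Of all 13735 probes 1931 fell and 2922 rose in KO cells there, and 1981 fell and 3211 rose in WT cells. With the replicate block 5 of the 13 fell in each, and 1 rose in KO cells and 3 in WT cells. Of all probes 23.9% fell and 23.2% rose in KO cells with the block, and 24.9% fell and 23% rose in WT cells. In the authors' values 5 box C/D probes fell in KO cells and 4 in WT cells, and 2 box H/ACA probes in each. There 983 of all probes fell in KO cells and 1018 in WT cells. No probe of any of these 6 lists was called between KO and WT cells under either treatment or in the difference of the responses.

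**Figure D4:**
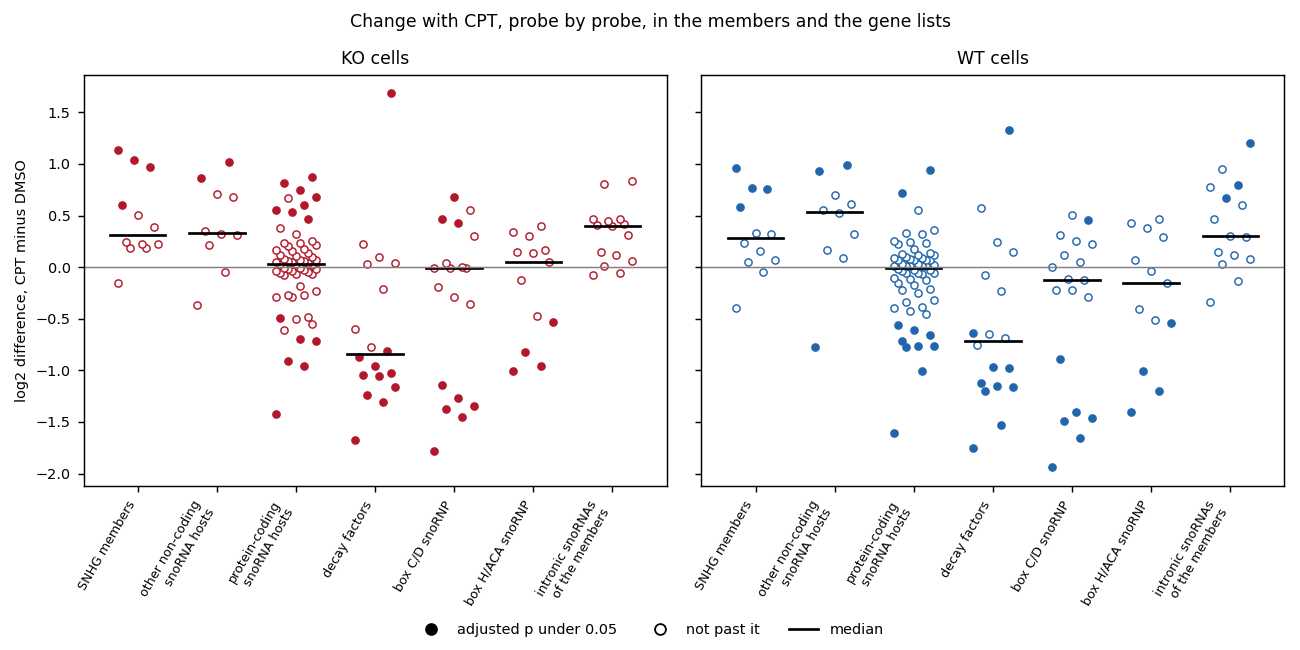
Each point is the log2 difference between CPT and DMSO of 1 probe, in KO cells at left and WT cells at right, by gene list, filled where the adjusted p was under 0.05, with a line at the median of the list. The host genes have medians of 0.31 in KO cells and 0.28 in WT cells, and the decay factors -0.84 in KO cells and -0.72 in WT cells.

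SYNCRIP, RCC1 and PHACTR4, which lie near SNHG5 or SNHG3, fell in both genotypes. They are among the nearest genes with a tested probe on each side of a host, with up to 41 genes between. Leaving out 6 probes for snoRNAs inside the hosts, 18 such probes of 12 genes gave 0 rises and 4 falls, on 3 genes, in KO cells, where 17.2% of all probes fell, and 0 rises and 6 falls, on 4 genes, in WT cells, where 17.9% fell. With the replicate block 7 fell in KO cells and 9 in WT cells, where 23.9% and 24.9% of all probes fell. SYNCRIP, the gene of an RNA-binding protein with 1 gene between it and SNHG5, fell by 1.94 in KO cells (adjusted p = 0.000774) and 1.64 in WT cells (adjusted p = 0.00236), where SNHG5 rose on ILMN_1653794. RCC1, the exchange factor of the GTPase Ran and the next gene after SNHG3, fell on 2 of 3 probes in KO cells and on all 3 in WT cells, by 1.08 in KO cells and 1.21 in WT cells on ILMN_1707493. PHACTR4, on the other side of SNHG3, fell by 1.22 in KO cells and 1.26 in WT cells. TRNAU1AP, next to SNHG12, gave 0.10 in KO cells and 0.08 in WT cells. With median scaling 4 of 24 neighbour probes, snoRNAs included, fell in KO cells and 5 in WT cells, and 1 and 3 rose. There 1931 and 1981 of all 13735 probes fell and 2922 and 3211 rose, and RCC1 lost its WT call on ILMN_2311497. In the authors' values 2 of the 24 fell and 0 rose in each genotype, where 983 and 1018 of all probes fell.

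Profiles most like those of single hosts were sought by Pearson correlation over the 12 normalized arrays, which share the treatment and the scaling, so that r is given as a description. DUSP28 (r = 0.970) and RNF123 (r = 0.968) were nearest to SNHG8. MFAP2 (r = 0.973) and RPS6KB2 (r = 0.962), the gene of a ribosomal S6 kinase, were nearest to SNHG15 on ILMN_1898124. Nearest to the mean profile of the 12 member probes were ANKRD13C-DT (r = 0.984) and NAT14 (r = 0.983). Between SNHG5 on ILMN_1653794 and SNHG6 r was 0.870, and it was 0.844 between the 2 SNHG5 probes.

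**Figure D5:**
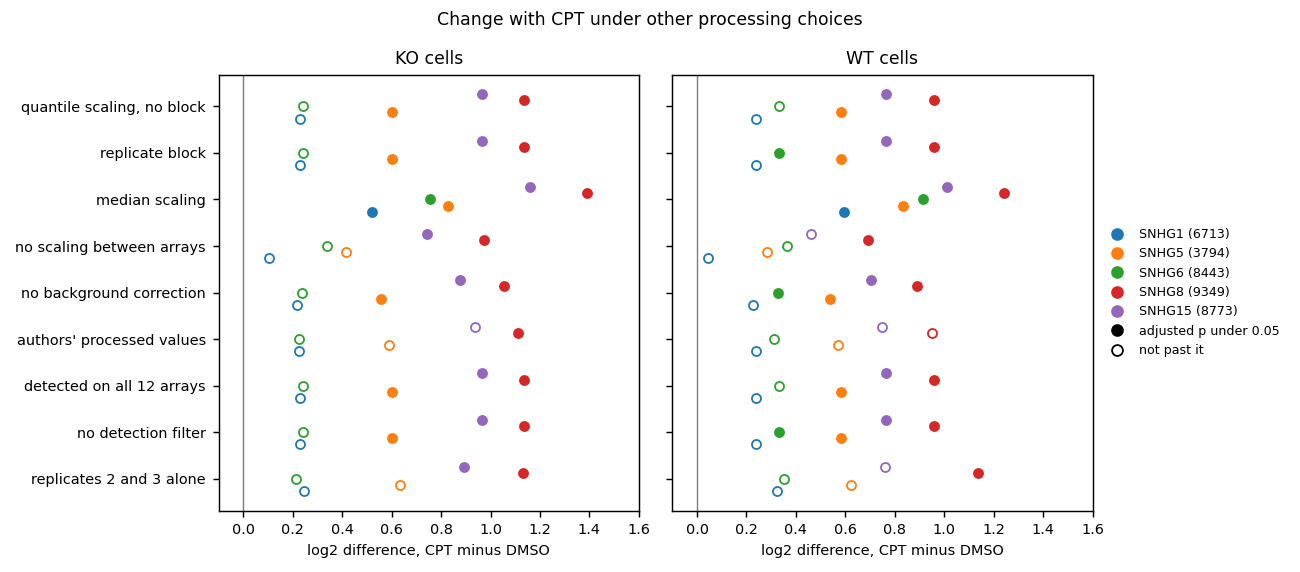
The log2 difference between CPT and DMSO of 1 probe each of SNHG1, SNHG5, SNHG6, SNHG8 and SNHG15 is drawn under 9 ways of processing the signals, KO cells at left and WT cells at right, filled where the adjusted p was under 0.05. Every point lies above 0, SNHG8 ranging from 0.97 to 1.39 in KO cells and 0.69 to 1.24 in WT cells, and fewer are filled without scaling or in the authors' values.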

How the data were processed

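Signal intensities of 47300 probes, with a detection p-value for each probe and array, were deposited by the authors as exported from GenomeStudio with neither background subtraction nor scaling. The authors also deposited intensity values after their own background subtraction and normalization, which were used only as an alternative. The sorted values of this second form differed by 0.0148 on average within replicate 1, by 0.0167 within replicates 2 and 3 and by 47.3 between these sets, so each set had been normalized apart. The CPT comparisons of these values had no term for the sets, so a shift between sets would add to their scatter. How much this changed the calls was not tested. Release of GenomeStudio: not given in the sources used here.

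Background was corrected with nec (offset 16), and arrays were quantile-normalized and put on the log2 scale. A probe was tested, each on its own, if it named exactly 1 gene and had a detection p under 0.01 on 3 or more arrays, which left 13735 probes of 10464 genes. Of the 47300 probes, 30098 named 1 gene, 8 several and 17194 none, and 30059 were matched to RefSeq for symbols. Comparisons used limma 3.58.1 in R 4.3.3 (lmFit and eBayes, two-sided, Benjamini-Hochberg over all tested probes, adjusted p under 0.05), with all 12 arrays in 1 fit (8 residual degrees of freedom). The difference of the responses was fitted with the replicate number as a block (6 residual degrees of freedom). In other comparisons the block was an alternative.

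As a check of pairing, each array was set against its group mean. Such deviations had r of 0.257 to 0.685 for the 18 pairs of arrays with a common replicate number and of at most 0.0305 for others, so the numbers pair the arrays. The script was tested on simulated data with known changes. All probes of the 9 genes are described. From each list up to 4 called probes with the smallest p were named, with the nearest profiles and the nearest tested gene on each side. The 6 snoRNAs inside the hosts that this rule met were left out of the neighbours after their values had been seen. SNORA24, SNORD80 and values set beside called ones were added after they had been seen. Members and lists were chosen with earlier results of these data known. Promoters came from RefSeq (GRCh38.p14).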

Additional observations from a re-analysis of the deposited data

Results flagged for a closer look

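The SNHG7 probe ILMN_3233205 drew attention because every replicate pair moved one way in KO cells and the other way in WT cells. CPT minus DMSO was 0.65, 0.73 and 0.15 in the 3 KO pairs and -0.08, -0.29 and -0.81 in the 3 WT pairs, on the log2 scale. The response was larger in KO cells by 0.90 ± 0.28 (SE, 95% confidence interval 0.29 to 1.51), which did not pass the adjustment over all 13735 probes (limma, adjusted p = 0.799). The probe is dim, with bead signals of 116.4 to 198.3, and the other SNHG7 probes gave 0.23 (ILMN_3227023) and 0.32 (ILMN_3233229) for the same difference.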

How the results depend on the processing

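No host gene probe had the opposite sign while called under any of the settings tried, while counts of calls depended on scaling and on the number of arrays. The dim SNHG3 probe, called in WT cells only with median scaling, changed sign there when 1 array was left out with quantile scaling. With median scaling 7 of the 12 probes rose in KO cells and 8 in WT cells, where 2922 and 3211 of all 13735 probes rose. The median of all probes also moved, to 0.20 in KO cells and 0.22 in WT cells. Of the called probes alone, 60.2% in KO cells and 61.8% in WT cells were higher there, against 43.3% in KO cells and 40.8% in WT cells with quantile scaling. With no scaling between arrays, a setting chosen after seeing the data, 3 probes were called in KO cells and 2 in WT cells, where SNHG8 was higher and the SNHG7 probe ILMN_3233205 was lower by -0.85 (adjusted p = 0.0247). There the median of all probes was -0.21 in KO cells and -0.33 in WT cells. Of all probes 26.8% were called in KO cells and 32.3% in WT cells, and 12.7% of the called probes in KO cells and 6.77% in WT cells were higher. In the authors' values 2 probes were called in KO cells and 0 in WT cells, where 33.2% and 31.2% of called probes were higher. In that setting limma called 1472 of all probes in KO cells and 1480 in WT cells, against 4168 in KO cells and 4149 in WT cells with quantile scaling, and 4 of the 12 host gene probes had an unadjusted p under 0.05 in each genotype.

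With 1 probe for each gene, that of the highest mean level, 2 of 8 were called in each genotype, SNHG8 and SNHG15, both higher. SNHG5 was read there by ILMN_2200659, which was not called. Of all 10464 probes kept there, 31.7% were called in KO cells and 31.5% in WT cells, and 1449 and 1359 were called higher. With replicates 2 and 3 alone, normalized apart by the authors from replicate 1, 3 were called in KO cells and 1 in WT cells, which was SNHG8 (1.13 in both). Of all probes 2700 were called in KO cells and 2636 in WT cells, 1078 and 953 of them higher. Leaving out 1 array at a time gave 4 to 4 calls in KO cells and 2 to 4 in WT cells, the lowest without replicate 2 of the WT cells under CPT, where SNHG15 was lost on both probes. Of all probes 21.1% to 34.4% were called in KO cells in these fits, and 20.9% to 32.8% in WT cells. Those called higher numbered 1144 to 2106 in KO cells and 1044 to 1932 in WT cells. The paired fit with the replicate block gave 5 calls in KO cells and 6 in WT cells, called 6463 of all probes in KO cells and 6575 in WT cells, and changed no other call of a host gene. A fold above 1.5 with an unadjusted p under 0.05 called 1 of 12 probes in the difference of the responses, ILMN_3233205 of SNHG7, beside 390 of all probes (2.84%). All values of the genotype comparisons stayed uncalled. SNHG3 and GAS5 were near background, which limits what can be said of them.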
